A study of Homo sapiens with 36 samples.

Results

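The 6 human UGT2B genes described here are UGT2B7, UGT2B10, UGT2B11, UGT2B15, UGT2B17 and UGT2B28, picked by gene symbol from 61805 named entries of a gene count table. They encode UDP-glucuronosyltransferases, membrane enzymes of the endoplasmic reticulum that join glucuronic acid, taken from UDP-glucuronic acid, to small lipophilic molecules and so make them soluble and ready for export. In prostate cells UGT2B15 and UGT2B17 are known as the enzymes that conjugate dihydrotestosterone, testosterone and their breakdown products, and androgens are known to lower the transcripts of both. The genes lie side by side and are close paralogs, so sequencing reads can be hard to assign to one of them.

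RNA was sequenced from LNCaP, an androgen-responsive prostate cancer cell line, and from 42D, a prostate cancer cell line known as an enzalutamide-resistant derivative of LNCaP, in 36 libraries of 12 groups with 3 replicates each. In 42D the lines were sgT33-5 and NT3, and in LNCaP they were sgT33-5_MC_C2 (C2 here), sgT33-5_MC_F2 (F2 here), sgT33-5 and NT3. Each line was given R1881, a synthetic androgen, at 5 nM or DMSO, its solvent, for 6 h, and the cells of every group had first spent 3 days in medium with 5% charcoal-stripped serum, which is poor in steroids. The labels do not expand the line names. From the series title sgT33-5 was read as a guide against TRIM33, a chromatin-bound ubiquitin ligase, and NT3 as its control, and whether C2 and F2 are each 1 clone is not stated. Nothing states that replicates were separate cultures, so p-values measure the spread between these libraries, which may be technical.

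TRIM33 itself was lower in every guide line. It averaged 59.9 CPM (counts scaled to the size of the library) in LNCaP sgT33-5 with R1881 against 126.5 CPM in LNCaP NT3 with R1881, and 73.9 CPM in 42D sgT33-5 with R1881 against 105.3 CPM in 42D NT3 with R1881. The log2 fold change of guide line over NT3 with DMSO was -1.41 in C2, -1.14 in F2, -0.96 in LNCaP sgT33-5 and -0.55 in 42D sgT33-5, each past an adjusted p of 0.05 in edgeR's quasi-likelihood test. Library totals ran from 13900744 to 19793268 counts. All 10 luminal prostate markers examined were above 1 CPM in both cell lines. The 7 hepatocyte markers, a list examined because the liver expresses the same enzymes, summed to 1.52 to 3.75 CPM in 42D libraries and 0.989 to 13.7 CPM in LNCaP libraries, and the part of other cell types in the results was not tested. In such bulk samples fewer cells of a type and less RNA per cell cannot be told apart.

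The 6 genes span 758 kb of chromosome 4 (GRCh38), and each annotated transcript has 6 exons. UGT2B17, an androgen-conjugating enzyme, lies at 68537173 to 68576413 on the minus strand, followed by UGT2B15 at 68646597 to 68670652, also on the minus strand. UGT2B10, known for joining glucuronic acid to nitrogen atoms of amines such as nicotine, lies at 68815994 to 68832023 on the plus strand. UGT2B7, which handles opioids and many other drugs, lies at 69051363 to 69112987 on the plus strand. UGT2B11 lies at 69199951 to 69214748 on the minus strand and UGT2B28, a steroid-conjugating enzyme, at 69280475 to 69295050 on the plus strand.

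Reads of 51 bases were sequenced, so the share of each transcript's 51-base windows that occur letter for letter in another gene's transcript gives the scope for ambiguous reads. That share was 39.7% for UGT2B11, 34.7% for UGT2B28, 30.8% for UGT2B10, 27.3% for UGT2B17, 27.3% for UGT2B15 and 6.37% for UGT2B7. UGT2B15 and UGT2B17 shared 549 windows, 27.1% of those of UGT2B15, and their transcripts were 88.3% identical. UGT2B28 shared 352 windows with UGT2B11, 19.7% of those of UGT2B28. How the counting treated a read that matched several genes is not given in the sources used here, so a value of one gene may hold reads of its paralogs. Paired ends reduce the ambiguity for fragments of which one end lies in a unique window.

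Promoters of UGT2B10, UGT2B11 and UGT2B15, the genes called higher in C2 and lower in F2 than in NT3 with DMSO, are shown. The RefSeq table held promoters of 4 of the 6 genes (250 bases before to 50 after the start, GRCh38.p14), and those of UGT2B17 and UGT2B28 were not analysed here. Capitals near the start mark an 18-base run that all 3 share. In UGT2B15 the earlier capitals mark AGAACA, a half-site letter string of steroid hormone receptors, and GTAAACA, the reverse complement of TGTTTAC, a string of forkhead factors. They cover chr4:68670603-68670902 (minus strand), chr4:69214699-69214998 (minus strand) and chr4:68815744-68816043 (plus strand).
UGT2B15: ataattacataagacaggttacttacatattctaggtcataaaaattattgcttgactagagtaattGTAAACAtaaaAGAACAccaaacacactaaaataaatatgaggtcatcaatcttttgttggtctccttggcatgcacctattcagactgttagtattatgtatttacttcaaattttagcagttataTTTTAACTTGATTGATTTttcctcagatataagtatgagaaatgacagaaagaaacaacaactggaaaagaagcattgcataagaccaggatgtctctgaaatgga
UGT2B11: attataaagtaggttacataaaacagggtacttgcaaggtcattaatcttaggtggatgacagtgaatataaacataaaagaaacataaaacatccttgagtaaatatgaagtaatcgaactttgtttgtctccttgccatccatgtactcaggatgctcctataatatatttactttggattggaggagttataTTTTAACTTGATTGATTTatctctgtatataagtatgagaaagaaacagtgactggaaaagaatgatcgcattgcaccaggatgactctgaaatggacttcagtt
UGT2B10: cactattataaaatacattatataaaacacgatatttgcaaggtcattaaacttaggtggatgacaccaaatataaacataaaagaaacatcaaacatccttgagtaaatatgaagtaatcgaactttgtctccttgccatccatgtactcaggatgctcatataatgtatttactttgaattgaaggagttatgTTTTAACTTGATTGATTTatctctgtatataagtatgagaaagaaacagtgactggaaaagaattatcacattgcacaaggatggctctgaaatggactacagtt
The shared run TTTTAACTTGATTGATTT began at position -56 from the start in UGT2B15 and at -55 in UGT2B11 and UGT2B10, and 3 of 35116 promoters in the table, these included, held it on the strand of their gene. The run was taken as the longest string common to these 3 promoters, so that all 3 hold it was fixed in advance. Whether it goes with the calls was not tested. The UGT2B10 and UGT2B11 promoters were 90.1% identical, and UGT2B15 was 69.5% identical to UGT2B11 and 68% to UGT2B10. AGAACA on either strand was present in 14.8% of all promoters and TGTTTAC in 3.42%, so the single match of each in UGT2B15, at -172 and -183, is a description of letters only.

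Per kilobase of transcript, the order of levels was headed by UGT2B17 and then UGT2B15 in every group. In LNCaP NT3 with DMSO UGT2B17 stood at 52.6 ± 21.6 CPM per kb and UGT2B15 at 18.7 ± 5.19 CPM per kb (SD, n = 3). UGT2B10 at 1.69 ± 0.684 CPM per kb and UGT2B11 at 1.55 ± 0.166 CPM per kb were next, and these neighbours did not differ beyond their spread. UGT2B28 at 0.162 ± 0.0588 CPM per kb and UGT2B7 at 0.0816 ± 0.0284 CPM per kb (SD, n = 3) closed the order. UGT2B7 had at most 11 counts in any library and none in 1 library of 42D sgT33-5 with R1881 and 1 of 42D NT3 with DMSO, where 3 counts would be 0.194 and 0.19 CPM. It did not pass the filter on low counts, so 5 of the 6 genes were tested.

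**Figure D1:**
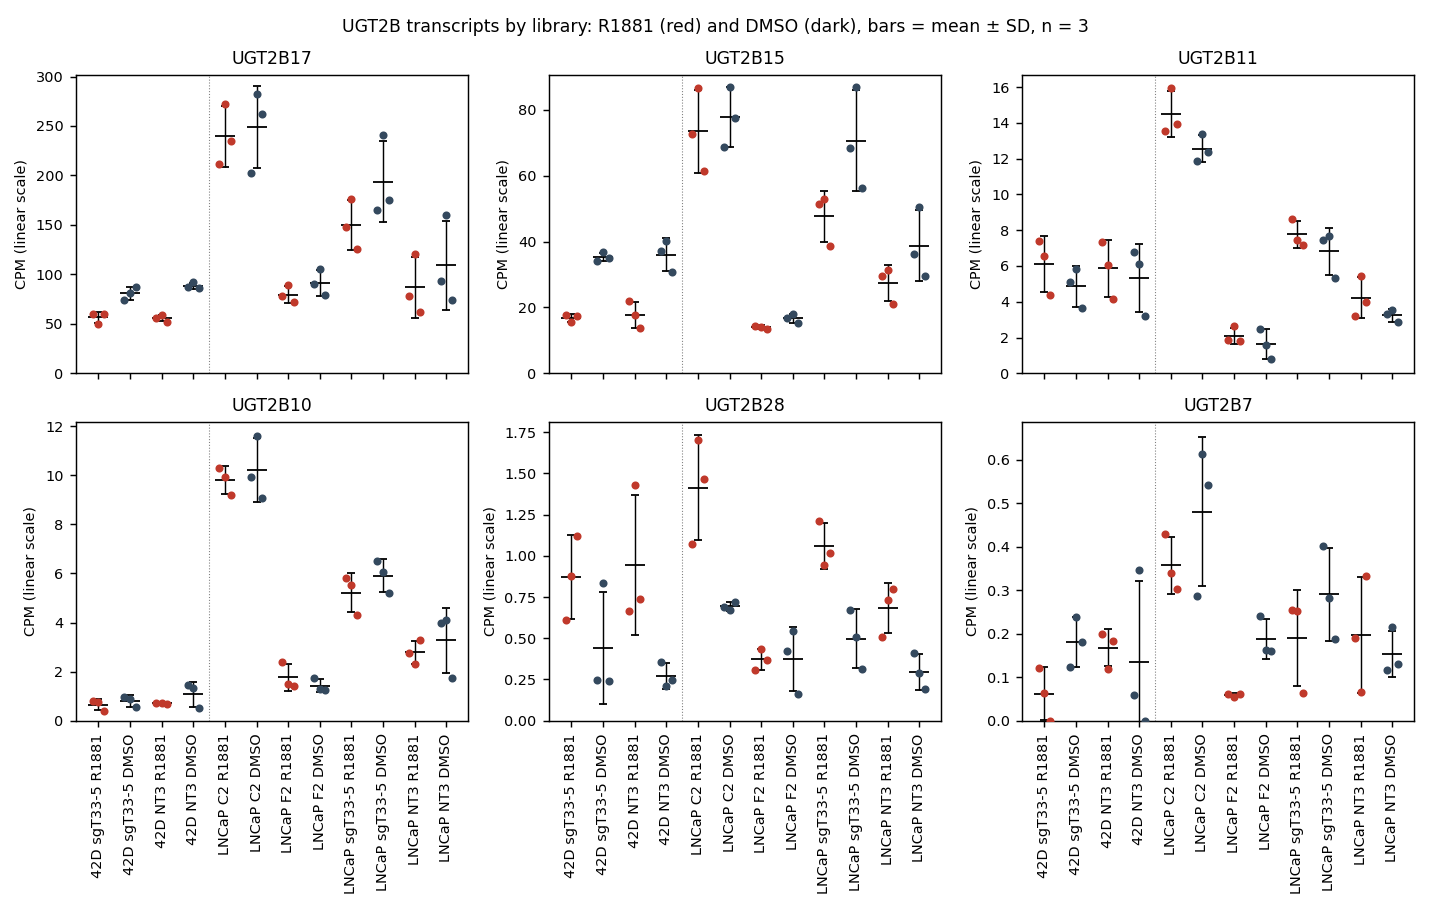
Level of each of the 6 genes (CPM, linear axis, 1 panel per gene) in the 36 libraries of 12 groups; points are libraries and bars are group means. UGT2B15 and UGT2B17 were highest on average in C2, where libraries lay between 61.3 and 87.0 CPM and between 202 and 282 CPM.

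In C2 all 5 tested genes rose over NT3. With DMSO 8.53% of 15519 genes tested were called higher in this comparison, and 5 of 5 UGT2B genes were. Their median log2 fold change was 1.20, against 0.00 over all genes. With R1881 9.67% of genes were called higher and again 5 of 5 UGT2B genes, with a median of 1.47. The bars of the plot of guide line over NT3 lie on the positive side for C2 throughout.

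UGT2B17 had 202, 282 and 262 CPM in the C2 libraries with DMSO, against 93.2, 160 and 74.6 CPM in the NT3 libraries with DMSO. No C2 library overlapped NT3, although 1 NT3 library stood well above the other two. The log2 fold change was 1.20 ± 0.267 (SE; adjusted p = 0.00499, edgeR quasi-likelihood, 3 of 3 libraries higher), and did not pass when only the libraries compared were fitted (1.19, adjusted p = 0.0863). With R1881 it had 212, 272 and 235 CPM in C2, against 78.4, 121 and 61.6 CPM in NT3, a log2 fold change of 1.47 (adjusted p = 0.000743 in edgeR).

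UGT2B15 had 68.7, 87.0 and 77.5 CPM in C2 with DMSO, against 36.2, 50.6 and 29.5 CPM in NT3 with DMSO. Again every C2 library lay above every NT3 library. The log2 fold change was 1.02 ± 0.195 with DMSO (adjusted p = 0.00134) and 1.43 with R1881 (adjusted p = 3.99e-05, both edgeR). UGT2B15 and UGT2B17 counted together, a sum that is not affected by reads passed between the pair, came to 326 ± 50.1 CPM in C2 with DMSO, against 148 ± 55.6 CPM in NT3 with DMSO (SD, n = 3 each). These sums did not overlap, and the 2-sided exact permutation p of 0.1 is the smallest that 3 against 3 libraries allow (adjusted p = 0.243 over 34 tests of this sum and of the share given further on).

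Among the genes of lower level, UGT2B11 had 11.9, 13.4 and 12.4 CPM in C2 with DMSO, against 3.33, 3.52 and 2.85 CPM in NT3 with DMSO. UGT2B10 had 9.94, 11.6 and 9.08 CPM in C2 with DMSO, against 3.98, 4.09 and 1.75 CPM in NT3 with DMSO. Neither gene's libraries overlapped between the lines, and the log2 fold changes were 1.96 ± 0.199 for UGT2B11 (adjusted p = 6.11e-08) and 1.65 ± 0.198 for UGT2B10 (adjusted p = 8.08e-07, both edgeR). With R1881 the log2 fold change was 1.79 for UGT2B11 and 1.82 for UGT2B10.

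UGT2B28 rested on few reads, with 12 counts in each C2 library with DMSO and 3 to 7 counts in the NT3 libraries with DMSO. Its log2 fold change was 1.19 ± 0.4 with DMSO (adjusted p = 0.0385) and 1.05 with R1881 (adjusted p = 0.00916, both edgeR). The call with DMSO was lost in DESeq2 (adjusted p = 0.102), with no filter on low counts (adjusted p = 0.104), and without any one of NT3 DMSO replicate 2 or 3 or C2 DMSO replicate 1, 2 or 3 (adjusted p = 0.0749 to 0.147). The call with R1881 was lost without NT3 R1881 replicate 1 (adjusted p = 0.0608).

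F2, whose name carries the same guide, moved the other way for 3 of the 5 genes. With DMSO 7.73% of genes were called lower in F2 than in NT3, and UGT2B10, UGT2B11 and UGT2B15 were among them; the members' median log2 fold change was -1.01, against -0.01 over all genes. UGT2B15 had 16.7, 18.1 and 15.4 CPM in F2 with DMSO, against 36.2, 50.6 and 29.5 CPM in NT3 with DMSO, with no overlap. It fell by 1.20 on the log2 scale (SE 0.218, adjusted p = 0.00085, edgeR).

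UGT2B11 had 2.48, 1.57 and 0.808 CPM in F2 with DMSO, against 3.33, 3.52 and 2.85 CPM in NT3 with DMSO, which did not overlap. It fell by 1.01 on the log2 scale (adjusted p = 0.0107, edgeR), a call that ended without F2 DMSO replicate 3, where the log2 fold change was -0.68 (adjusted p = 0.0835). UGT2B10 had 1.75, 1.30 and 1.24 CPM in F2 with DMSO, against 3.98, 4.09 and 1.75 CPM in NT3 with DMSO. The ranges of UGT2B10 overlapped at the lowest NT3 library, and the gene fell by 1.20 on the log2 scale (SE 0.266, adjusted p = 0.00248, edgeR).

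UGT2B17 did not follow in F2. It had 89.98, 105 and 79.4 CPM in F2 with DMSO, against 93.2, 160 and 74.6 CPM in NT3 with DMSO, ranges that overlapped. Its log2 fold change was -0.25 with DMSO (adjusted p = 0.6, edgeR) and -0.12 with R1881 (adjusted p = 0.832, edgeR). UGT2B28 had 3 to 10 counts per F2 library with DMSO and a log2 fold change of 0.31 (adjusted p = 0.731, edgeR).

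With R1881 7.26% of genes were called lower in F2 than in NT3, with UGT2B15 and UGT2B11 among them. UGT2B15 had 14.4, 14.2 and 13.5 CPM in F2 with R1881, against 29.6, 31.5 and 21.1 CPM in NT3 with R1881, a log2 fold change of -0.97 ± 0.23 (adjusted p = 0.00855, edgeR). UGT2B11 had a log2 fold change of -1.0 ± 0.247 (adjusted p = 0.00736), which ended as a call without NT3 R1881 replicate 2 (-0.77, adjusted p = 0.0654). UGT2B10 reached -0.66 without passing the test (adjusted p = 0.104), and passed it without F2 R1881 replicate 1 (adjusted p = 0.0479) and with no filter on low counts (adjusted p = 0.0436). UGT2B28 had 5 to 8 counts per F2 library with R1881, against 8 to 12 in NT3 with R1881, and a log2 fold change of -0.85 (adjusted p = 0.158, edgeR).

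**Figure D2:**
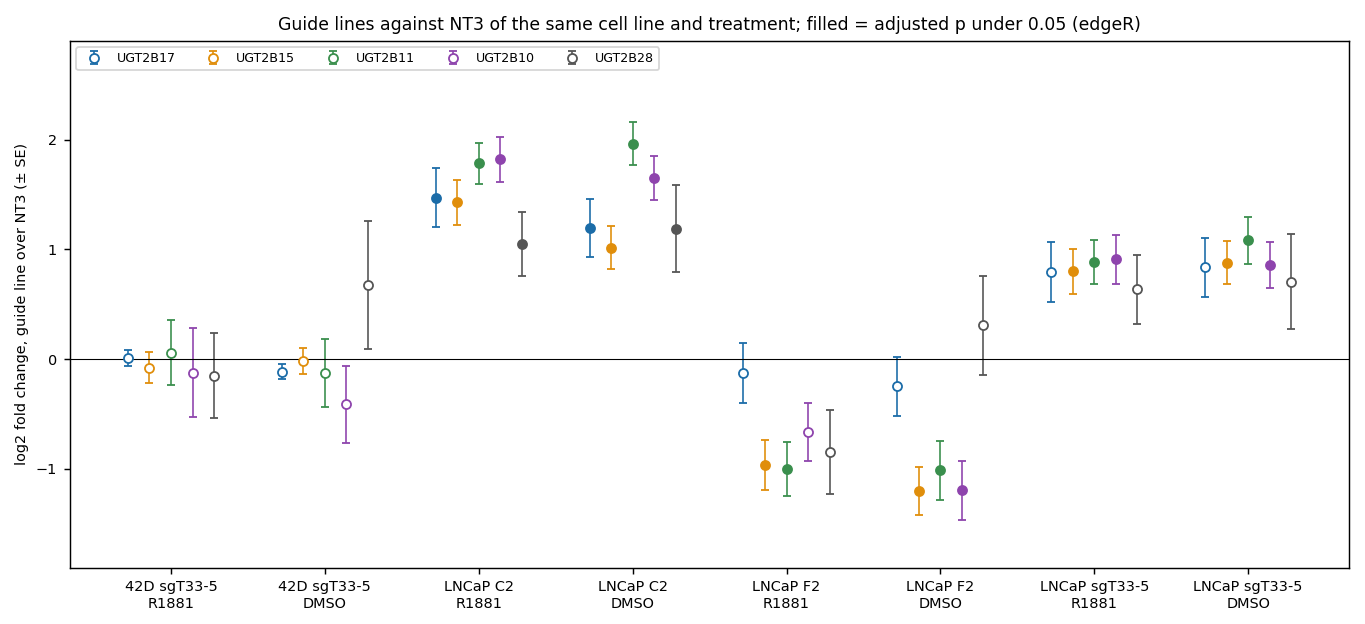
Log2 fold change of each guide line over NT3 (vertical axis, bars are ± SE) for the 5 tested genes with DMSO and with R1881; filled points passed an adjusted p of 0.05 in edgeR. C2 values run from 1.02 to 1.96, F2 values are at or below 0.31, and 42D sgT33-5 values have medians of -0.12 with DMSO and -0.08 with R1881.

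The direct comparison of C2 with F2, lines that carry the same guide name, gave wider differences than either line against NT3 for UGT2B10, UGT2B11, UGT2B15 and UGT2B17, but not for UGT2B28 with DMSO. These comparisons come from the same fit. For genes that moved in opposite directions from NT3 the wider difference therefore follows by arithmetic and is no added result. With DMSO 8.18% of genes were called higher in C2 than in F2, and 4 of the 5 tested UGT2B genes were. The log2 fold change of C2 over F2 was 2.98 for UGT2B11 (adjusted p = 2.36e-10), 2.84 for UGT2B10 (adjusted p = 5.09e-10), 2.22 for UGT2B15 (adjusted p = 3.85e-07) and 1.44 for UGT2B17 (adjusted p = 0.000952, all edgeR). UGT2B28 reached 0.88 (adjusted p = 0.0995). With R1881 9.26% of genes were called higher and all 5 UGT2B genes were, with log2 fold changes of 2.78 for UGT2B11, 2.48 for UGT2B10, 2.39 for UGT2B15, 1.90 for UGT2B28 and 1.59 for UGT2B17.

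In LNCaP sgT33-5, given without the added MC name, 3 genes were called higher than in NT3 with DMSO, where 0.509% of all genes were. UGT2B15 had 68.5, 86.8 and 56.3 CPM in sgT33-5 with DMSO, against 36.2, 50.6 and 29.5 CPM in NT3 with DMSO, with no overlap. UGT2B11 had 7.44, 7.70 and 5.31 CPM in sgT33-5, against 3.33, 3.52 and 2.85 CPM in NT3. UGT2B10 had 6.50, 6.06 and 5.18 CPM in sgT33-5, against 3.98, 4.09 and 1.75 CPM in NT3. Each sgT33-5 library of these genes lay above each NT3 library.

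The log2 fold changes of sgT33-5 over NT3 with DMSO were 1.08 ± 0.215 for UGT2B11 (adjusted p = 0.00636), 0.88 ± 0.196 for UGT2B15 (adjusted p = 0.0304) and 0.86 ± 0.213 for UGT2B10 (adjusted p = 0.0374, all edgeR). These calls leaned on single libraries. UGT2B11 lost its call without sgT33-5 DMSO replicate 2 (adjusted p = 0.0604). UGT2B15 lost it without NT3 DMSO replicate 1 or 3 or sgT33-5 DMSO replicate 1 or 2 (adjusted p = 0.0649 to 0.158). UGT2B10 lost it without NT3 DMSO replicate 3 or sgT33-5 DMSO replicate 1, 2 or 3 (adjusted p = 0.0533 to 0.205). When only the libraries compared were fitted, UGT2B15 (adjusted p = 0.33) and UGT2B10 (adjusted p = 0.129) did not pass. With 1 library left out, the log2 fold changes ran from 0.97 to 1.23 for UGT2B11, 0.69 to 1.11 for UGT2B15 and 0.55 to 1.04 for UGT2B10.

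UGT2B17 had 165, 241 and 175 CPM in sgT33-5 with DMSO, against 93.2, 160 and 74.6 CPM in NT3 with DMSO. Its libraries did not overlap either, but the log2 fold change of 0.84 ± 0.267 did not pass (adjusted p = 0.163, edgeR). It passed without NT3 DMSO replicate 2, the highest NT3 library (1.21, adjusted p = 0.033). UGT2B28 had a log2 fold change of 0.71 (adjusted p = 0.559).

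With R1881 0.979% of genes were called higher in sgT33-5 than in NT3, and UGT2B10, UGT2B11 and UGT2B15 were among them. The log2 fold changes were 0.91 for UGT2B10 (adjusted p = 0.0224), 0.89 for UGT2B11 (adjusted p = 0.0151) and 0.80 for UGT2B15 (adjusted p = 0.0416, all edgeR). UGT2B17 had 148, 176 and 125 CPM in sgT33-5 with R1881, against 78.4, 121 and 61.6 CPM in NT3 with R1881, a log2 fold change of 0.79 (adjusted p = 0.143). With the replicate number as a block it was 0.81 and passed (adjusted p = 0.00549). UGT2B28 had 15 to 19 counts per sgT33-5 library and a log2 fold change of 0.64 (adjusted p = 0.323).

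Those 3 calls with R1881 also leaned on single libraries. UGT2B10 lost its call without NT3 R1881 replicate 1 or 2 or sgT33-5 R1881 replicate 1 or 2 (adjusted p = 0.0752 to 0.119), UGT2B11 without NT3 R1881 replicate 1 or 3 or sgT33-5 R1881 replicate 1 (adjusted p = 0.0503 to 0.119), and UGT2B15 without NT3 R1881 replicate 1, 2 or 3 or sgT33-5 R1881 replicate 1 or 2 (adjusted p = 0.0706 to 0.166). UGT2B15 also lost it with no filter on low counts (adjusted p = 0.0637) and when only the libraries compared were fitted (adjusted p = 0.0553). Of the LNCaP libraries, sgT33-5 R1881 replicate 1 and sgT33-5 DMSO replicate 3 had a low share of mitochondrial counts, 2.40% and 2.14% against 4.16% to 6.66% in the others. Without both, 0 of the 5 genes were called in the comparison with R1881, and UGT2B10 was not called in that with DMSO (0.94, adjusted p = 0.0572).

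In 42D the same guide name went with no called difference in these genes. With DMSO 1.13% of genes differed in either direction and with R1881 0.513%, and 0 of 5 UGT2B genes were called in edgeR, 0 in DESeq2 and 0 at an unadjusted p under 0.05. UGT2B17 had 74.4, 81.3 and 87.6 CPM in 42D sgT33-5 with DMSO, against 87.2, 92.0 and 85.8 CPM in 42D NT3 with DMSO, a log2 fold change of -0.12 ± 0.0671 (SE, n = 3 each). UGT2B15 had 34.2, 36.7 and 35.1 CPM in 42D sgT33-5 with DMSO, against 37.1, 40.3 and 30.6 CPM in 42D NT3 with DMSO, a log2 fold change of -0.02 ± 0.118. With R1881 it was -0.08 ± 0.141 for UGT2B15 and 0.01 ± 0.0714 for UGT2B17. UGT2B10, UGT2B11 and UGT2B28 lay between -0.41 and 0.68 with DMSO and between -0.15 and 0.06 with R1881. The difference of the guide's effect between 42D and LNCaP was not tested, and TRIM33 was lowered less in 42D.

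UGT2B15 and UGT2B17 fell with R1881 in both 42D lines. In 42D NT3 11.4% of 15403 genes tested were called lower and 13.9% higher, and of the 5 UGT2B genes 2 were lower and 1 higher. UGT2B15 had 21.8, 17.6 and 13.9 CPM in 42D NT3 with R1881, against 37.1, 40.3 and 30.6 CPM in 42D NT3 with DMSO. UGT2B17 had 56.2, 59.0 and 52.3 CPM in 42D NT3 with R1881, against 87.2, 92.0 and 85.8 CPM in 42D NT3 with DMSO. Both genes were lower in 3 of 3 libraries with no overlap, by log2 fold changes of -1.0 ± 0.129 for UGT2B15 (adjusted p = 3.21e-05) and -0.64 ± 0.0692 for UGT2B17 (adjusted p = 4.19e-07, both edgeR).

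In 42D sgT33-5, where 13.2% of genes were called lower with R1881, both genes fell as well. UGT2B15 had 17.8, 15.5 and 17.4 CPM in 42D sgT33-5 with R1881, against 34.2, 36.7 and 35.1 CPM with DMSO, a log2 fold change of -1.06 ± 0.13 (adjusted p = 1.74e-05, edgeR). UGT2B17 had 60.3, 49.9 and 59.6 CPM in 42D sgT33-5 with R1881, against 74.4, 81.3 and 87.6 CPM with DMSO, a log2 fold change of -0.52 ± 0.0693 (adjusted p = 7.6e-06, edgeR). The summed level of the pair did not overlap between treatments in either line. It was 73.6 ± 6.49 CPM with R1881 against 124 ± 7.9 CPM with DMSO in 42D NT3, and 73.4 ± 7.03 CPM with R1881 against 116 ± 7.14 CPM with DMSO in 42D sgT33-5 (SD, n = 3 each).

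In 42D NT3 UGT2B28 was called higher with R1881, while UGT2B15 and UGT2B17 went down. It had 10, 24 and 12 counts in 42D NT3 with R1881, against 6, 3 and 4 counts in 42D NT3 with DMSO. The groups did not overlap and the log2 fold change was 1.78 ± 0.496 (adjusted p = 0.01, edgeR), which lost its call without 42D NT3 R1881 replicate 2 (1.34, adjusted p = 0.0921). In 42D sgT33-5 it had 10, 14 and 17 counts with R1881, against 4, 14 and 4 counts with DMSO, groups that overlapped. There the log2 fold change of 0.96 ± 0.452 did not pass (adjusted p = 0.129) and passed without 42D sgT33-5 DMSO replicate 2 (1.80, adjusted p = 0.0142). UGT2B10 had 0.734, 0.715 and 0.674 CPM in 42D NT3 with R1881, against 1.44, 1.32 and 0.499 CPM with DMSO, a log2 fold change of -0.59 (adjusted p = 0.272) that passed without 42D NT3 DMSO replicate 3 (-0.94, adjusted p = 0.0483). UGT2B11 had a log2 fold change of 0.15 in 42D NT3 (adjusted p = 0.791) and 0.34 in 42D sgT33-5 (adjusted p = 0.474).

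In LNCaP NT3 13.2% of genes were called with R1881 in either direction and 0 of the 5 UGT2B genes were, in edgeR or in DESeq2, while 2 had an unadjusted p under 0.05. UGT2B15 had 29.6, 31.5 and 21.1 CPM in NT3 with R1881, against 36.2, 50.6 and 29.5 CPM with DMSO, ranges that overlapped. The log2 fold change was -0.50 ± 0.21 (adjusted p = 0.149, edgeR). Between libraries of the same number UGT2B15 was lower with R1881 in 3 of 3, although the labels tie no number to a batch. Its call depended on whether the replicate number was a block, as given at the end. UGT2B17 had a log2 fold change of -0.33 ± 0.273 (adjusted p = 0.563), and was not called with the block either. It too was lower with R1881 in 3 of 3 pairs of the same number. Over the LNCaP lines each of the 2 genes was lower in 11 of 12 such pairs. UGT2B28 had 8, 11 and 12 counts in NT3 with R1881, against 7, 4 and 3 counts with DMSO, and a log2 fold change of 1.15 ± 0.411 (adjusted p = 0.0681). UGT2B10 had a log2 fold change of -0.24 (adjusted p = 0.658) and UGT2B11 of 0.37 (adjusted p = 0.388). The standard error of UGT2B17 was 0.0692 in 42D NT3 against 0.273 in LNCaP NT3, from separate fits of the 2 cell lines.

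In LNCaP sgT33-5 6.78% of genes were called higher with R1881, and UGT2B28 was the 1 UGT2B gene called. It had 19, 15 and 16 counts in sgT33-5 with R1881, against 10, 9 and 5 counts with DMSO, and a log2 fold change of 1.08 ± 0.331 (adjusted p = 0.0309, edgeR). DESeq2 gave an adjusted p of 0.0969 for it. In edgeR it was 0.0818 with no filter on low counts, 0.0659 when only the libraries compared were fitted and 0.305 without the 2 libraries low in mitochondrial counts, and edgeR gave 0.058 to 0.148 without sgT33-5 DMSO replicate 2 or 3 or sgT33-5 R1881 replicate 1 or 3. UGT2B15 had 51.5, 52.8 and 38.7 CPM in sgT33-5 with R1881, against 68.5, 86.8 and 56.3 CPM with DMSO, which did not overlap. Its log2 fold change of -0.58 ± 0.193 did not pass in edgeR (adjusted p = 0.0596). It passed in DESeq2 (adjusted p = 0.0359), without sgT33-5 DMSO replicate 3 (-0.71, adjusted p = 0.0271) and without the 2 libraries low in mitochondrial counts (-0.77, adjusted p = 0.0431). It was also called with the replicate number as a block, as given at the end. UGT2B17 reached -0.38 ± 0.263 (adjusted p = 0.424), UGT2B10 -0.19 (adjusted p = 0.628) and UGT2B11 0.18 (adjusted p = 0.63).

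In C2 3.6% of genes were called higher with R1881 and UGT2B28 was called among the 5. It had 20, 30 and 29 counts in C2 with R1881, against 12 counts in each C2 library with DMSO, a log2 fold change of 1.01 ± 0.28 (adjusted p = 0.0284, edgeR). That call ended in DESeq2 (adjusted p = 0.124), with no filter on low counts (adjusted p = 0.0589), and without C2 DMSO replicate 1, 2 or 3 or C2 R1881 replicate 2 or 3 (adjusted p = 0.0726 to 0.151). UGT2B15 and UGT2B17 had log2 fold changes of -0.09 and -0.06 in C2, UGT2B10 of -0.07 and UGT2B11 of 0.20 (adjusted p = 0.666). In F2, where 10.4% of genes were called in either direction, 0 of the 5 were called in edgeR, 0 in DESeq2 and 0 at an unadjusted p under 0.05. There UGT2B15 had a log2 fold change of -0.26 ± 0.238 (adjusted p = 0.608), UGT2B17 of -0.21, UGT2B28 of -0.01, UGT2B10 of 0.29 and UGT2B11 of 0.39.

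**Figure D3:**
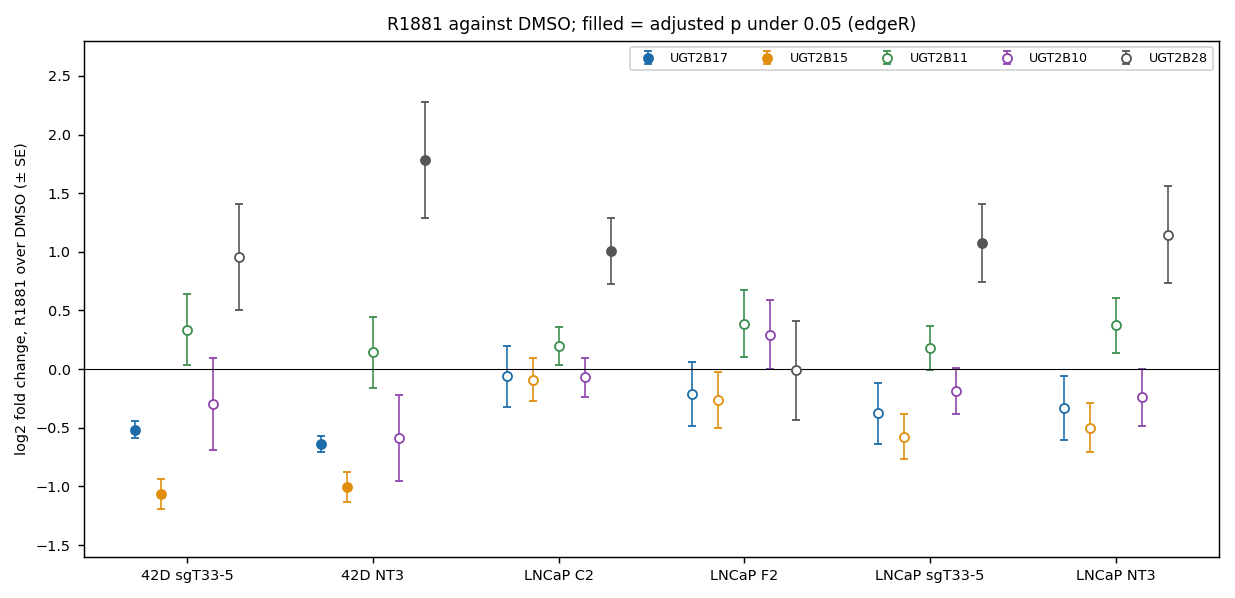
Log2 fold change of R1881 over DMSO (vertical axis, bars are ± SE) for the 5 tested genes in 2 lines of 42D and 4 of LNCaP; filled points passed an adjusted p of 0.05 in edgeR. UGT2B15 lies at -1.06 in 42D sgT33-5 and -1.0 in 42D NT3, and at -0.58 to -0.09 in the LNCaP lines.

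Whether the response to R1881 differed between lines was tested as an interaction. With the filter on low counts no UGT2B gene was called in any of 5 such tests in edgeR (0 of 5 genes each), 0 in DESeq2 and 0 at an unadjusted p under 0.05. Over all genes 0% were called for sgT33-5 minus NT3 and for F2 minus NT3 in LNCaP, 0.689% for C2 minus NT3, 0.123% for sgT33-5 minus NT3 in 42D, and 3.85% for 42D minus LNCaP. The response of UGT2B15 was 0.41 ± 0.28 higher in C2 than in NT3 on the log2 scale, and 0.53 lower in 42D NT3 than in LNCaP NT3 (log2 difference -0.53 ± 0.283, adjusted p = 0.42, edgeR). The response of UGT2B17 in 42D NT3 differed from that in LNCaP NT3 by -0.34 (adjusted p = 0.749). With no filter on low counts both passed in this last test, UGT2B15 at -0.52 (adjusted p = 0.00125) and UGT2B17 at -0.32 (adjusted p = 0.0253), so the call depends on the filter. UGT2B10, UGT2B11 and UGT2B28 lay between -1.16 and 0.61 in the 5 tests.

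The proportion of UGT2B15 to UGT2B17 varied between groups. UGT2B15 took 15.5 ± 0.77% of the counts of the pair in F2 with DMSO, against 26.8 ± 2.39% in NT3 with DMSO, and 15.1 ± 1.14% in F2 with R1881, against 24.6 ± 3.46% in NT3 with R1881 (SD, n = 3 each). F2 lay below NT3 in 3 of 3 libraries under both treatments. C2 at 23.9 ± 1.28% with DMSO overlapped NT3. In 42D sgT33-5 the share was 23 ± 0.599% with R1881, against 30.4 ± 1.59% with DMSO, with no overlap. In 42D NT3 it was 24 ± 3.61% with R1881, against 28.9 ± 2.26% with DMSO, and these overlapped. Each non-overlapping difference had a 2-sided exact permutation p of 0.1, the smallest possible, and an adjusted p of 0.243.

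**Figure D4:**
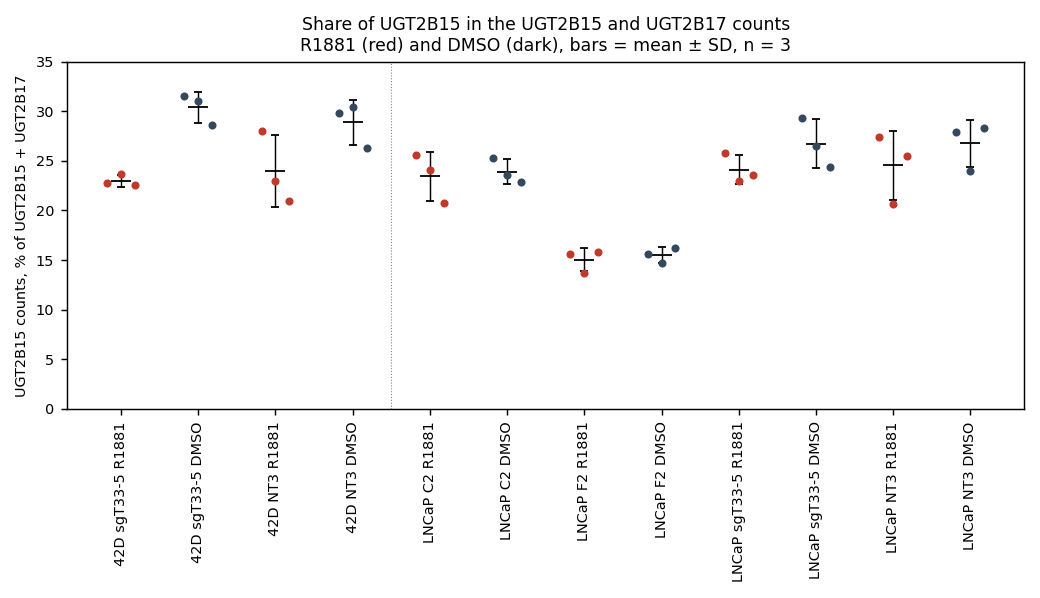
Share of UGT2B15 in the counts of UGT2B15 and UGT2B17 together (vertical axis, percent) in the 12 groups; points are libraries and bars are means. The F2 groups average 15.1% with R1881 and 15.5% with DMSO, against 24.6% and 26.8% in LNCaP NT3.

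Between the control lines of the 2 cell lines with DMSO, 34.8% of genes were called higher in 42D and 33.3% lower. UGT2B11 was higher in 42D, with 6.75, 6.12 and 3.18 CPM in 42D NT3 against 3.33, 3.52 and 2.85 CPM in LNCaP NT3, groups that overlapped. Its log2 fold change was 0.73 ± 0.281 (adjusted p = 0.0238, edgeR), a call lost without LNCaP NT3 DMSO replicate 3 or 42D NT3 DMSO replicate 1 or 2 (adjusted p = 0.0781 to 0.158). UGT2B10 was lower in 42D, with 1.44, 1.32 and 0.499 CPM in 42D NT3 against 3.98, 4.09 and 1.75 CPM in LNCaP NT3, which did not overlap, and a log2 fold change of -1.59 ± 0.29 (adjusted p = 9.59e-06, edgeR). UGT2B15 at -0.10, UGT2B28 at -0.12 and UGT2B17 at -0.30 were not called (adjusted p = 0.247 for UGT2B17), and with no filter on low counts UGT2B17 passed at the same size (-0.30, adjusted p = 1.23e-05). The 1 of 5 genes called in each direction is no larger a share than over all genes.

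Across the 12 group means of log2 CPM, UGT2B10 and UGT2B17 ran most closely together among pairs of the 5 genes, with Pearson r = 0.946, and UGT2B15 and UGT2B17 had r = 0.896. UGT2B15 and UGT2B28 had r = 0.253. The points share cell lines and treatments, and the genes share sequence, so these are descriptions. Outside the 6 genes and among 11194 genes with a mean of at least 5 CPM, the profile of UGT2B10 was most like that of UGT8, which makes galactosylceramide, the lipid of myelin (r = 0.981), then HDDC2, BEST1, RPS14 and U2AF2. UGT2B11 was most like HPSE (r = 0.966), PTMA, RPS24, SIPA1L1 and HLTF, and UGT2B15 most like NPM1 (r = 0.956), SEPHS1, MZT1, NIPSNAP3A and CASTOR3. UGT2B17 was most like MMP24 (r = 0.956), CNOT8, UGT8, DCAF13 and MZT1, and UGT2B28 most like IMMP1L (r = 0.88), RAD51C, CDK1, UQCC2 and FAM107B. With Spearman's rho instead, 1 to 3 of the 5 names stayed for each gene.

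UGT8, picked for its likeness to UGT2B10, averaged 48.5 CPM in C2 with DMSO, 25.2 CPM in F2 with DMSO and 36.3 CPM in NT3 with DMSO. Its log2 fold change over NT3 was 0.42 in C2 (adjusted p = 0.00708) and -0.53 in F2 (adjusted p = 0.00172, both edgeR), while the log2 fold change of 0.32 in LNCaP sgT33-5 did not pass (adjusted p = 0.172). UGT2B4, another UGT2B gene next to the cluster, had 2 summed counts in F2 with DMSO against 25 in NT3 with DMSO, and 1 in F2 with R1881 against 21 in NT3 with R1881, and was called lower in both. In C2 UGT2B4 did not rise with the others. Its log2 fold change over NT3 with DMSO was -1.74, and it was not called under either treatment.

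The genes called around the cluster went in both directions, and a regional cause was not tested. Of the 10 tested genes on each side, picked by position after values had been seen, 2 were higher and 0 lower before the cluster in C2 against NT3 with DMSO, and 0 higher and 2 lower after it. Their median log2 fold changes were 0.08 before the cluster and -0.11 after it. Over all genes 8.53% were called higher and 9.63% lower in C2. In F2 against NT3 with DMSO 8.94% of all genes were called higher and 7.73% lower. Of the neighbours 1 was higher and 1 lower before the cluster, and 0 higher and 2 lower after it, with UGT2B4 among these. TMPRSS11E, a transmembrane serine protease gene before the cluster, is named here after its values were seen. Its log2 fold changes over NT3 with DMSO, 0.88 in C2 and 0.60 in F2, were the largest of the 10 genes on that side.

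**Figure D5:**
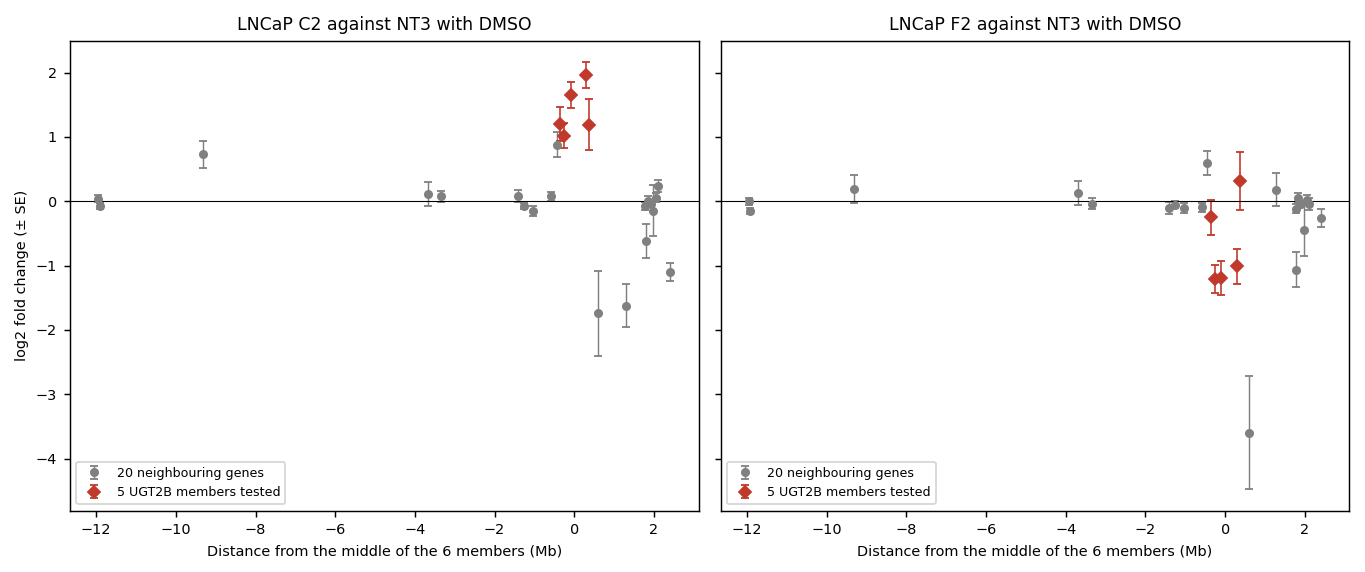
Log2 fold change of C2 and of F2 over NT3 with DMSO (vertical axis) against distance from the middle of the UGT2B cluster (horizontal axis, Mb) for the 5 tested UGT2B genes and 10 tested genes on each side. The UGT2B genes of C2 stand at 1.02 to 1.96, whereas the medians of the neighbours in C2 are 0.08 and -0.11.

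Other genes of androgen handling were followed through 6 lists. With R1881 in 42D NT3, the list of UDP-glucuronic acid supply and deconjugation had 2 of 7 tested genes higher and 0 lower, and steroid and conjugate transport had 2 of 4 higher and 1 lower, against 13.9% higher and 11.4% lower over all genes. Transporter gene ABCC4, whose protein exports steroid conjugates, averaged 344 ± 14.7 CPM in 42D NT3 with R1881, against 116 ± 8.27 CPM with DMSO (SD, n = 3), a log2 fold change of 1.60 (adjusted p = 8.42e-13, edgeR). ABCC1, a related exporter, had a log2 fold change of 1.36. AKR1D1, the steroid 5-beta-reductase gene, had 32 summed counts in 42D NT3 with R1881 against 1 with DMSO, and 34 against 1 in 42D sgT33-5. Androgen synthesis genes split, with 2 of 6 higher and 2 lower, among them AKR1C3, which reduces androstenedione to testosterone, at 37 summed counts with R1881 against 79 with DMSO.

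In LNCaP NT3 ABCC4 rose by a log2 fold change of 1.86 and ABCC1 by 0.995 with R1881, so 2 of 5 transport genes were higher and 0 lower, against 8% higher and 5.15% lower over all genes. PGM2, a phosphoglucomutase gene of the supply list, was the 1 of 6 supply genes called (0.61).

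In C2 against NT3 with DMSO, 2 of the 9 tested receptors and factors known to act at UGT2B genes were higher, JUN among them with a log2 fold change of 0.67 (adjusted p = 0.000236, edgeR), and 2 were lower, PPARA among them at -0.43 (adjusted p = 0.000362, edgeR), against 8.53% higher and 9.63% lower over all genes. ABCC4 was lower in C2 by a log2 fold change of -0.67, and 2 of 5 transport genes were lower and 0 higher. In F2 against NT3 with DMSO 1 of those 9 factors was higher, VDR at 0.36, and 0 lower, against 8.94% higher and 7.73% lower over all genes. PAPSS1, which makes the sulfate donor of the competing sulfation route, was lower in F2 by a log2 fold change of -0.61 (adjusted p = 3.91e-07), and of the synthesis genes 2 of 7 were higher, STS at 0.49 and SRD5A1, a 5-alpha-reductase gene, at 0.37.

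Between cell lines SLC35D1, a transporter that carries UDP-glucuronic acid into the endoplasmic reticulum, had 832 summed counts in 42D NT3 with DMSO and 0 in LNCaP NT3 with DMSO, at least 279-fold higher with a floor of 3 counts over the group. It had 256 to 345 counts in each of the 12 42D libraries and 0 in all 24 LNCaP libraries. PAPSS2 had 69 summed counts in 42D NT3 against 3 in LNCaP NT3, AKR1C3 had 79 against 4, and UGT2B4 had 3 against 25. In the synthesis list, which holds AKR1C3, 2 of 8 tested genes were higher in 42D and 3 lower. In the inactivation list 3 of 11 tested genes were higher in 42D and 5 lower, and in the supply list 3 of 7 were higher and 1 lower, against 34.8% higher and 33.3% lower over all genes.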

How the data were processed

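The deposited table holds gene counts for 36 RNA-seq libraries of 12 groups with 3 replicates each. Per the labels' protocols, polyA RNA was prepared with a stranded kit and sequenced as paired 51-base reads. Per the submitters' processing notes the tools were cutadapt and HISAT2 2.1.0 with hg38; how reads were assigned to genes is not given in the sources used here.

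From the counts the authors deposited, edgeR 4.0.16 in R 4.3.3 gave TMM-scaled CPM and quasi-likelihood tests (filterByExpr by group, Benjamini-Hochberg over all genes tested, 0.05). Each SE of a log2 fold change was derived from its test, as the absolute log2 fold change over the square root of the F statistic. LNCaP (24 libraries, 15519 genes) and 42D (12 libraries, 15403 genes) were fitted apart, and cell lines compared in all 36 (16564 genes). Alternatives were DESeq2 1.42.0, other filters and scalings, a replicate block and leaving out libraries. Same-numbered libraries deviated together (every correlation above 0.1) in 7 of 16 comparisons, although the labels tie no number to a batch.

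The 5 tested genes are covered in each comparison whether called or not, some by a range, and UGT2B7 by its counts. From the pathway lists up to 3 called genes with the largest change per direction qualified, and for each tested gene the 5 genes with the highest Pearson r over group means. One gene that the rule would name is not reported here. The 6 genes and the lists were chosen with earlier results of these data known. Fits were tested on simulated data. Sequences came from RefSeq and transcripts from the reference annotation, compared with Biopython 1.88.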

Additional observations from a re-analysis of the deposited data

How the results depend on the processing

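Of 39 called values of single UGT2B genes, 0 changed sign in any setting tried. Counts of called UGT2B genes moved by more than 1.5 times in these cases. For the LNCaP NT3 response the count was 1 with the replicate block in place of 0. For the LNCaP sgT33-5 response it was 0 with no filter on low counts, 2 with the block and 0 when only the libraries compared were fitted, in place of 1. For the C2 response it was 0 with no filter and 0 in DESeq2, in place of 1. For sgT33-5 against NT3 it was 1 with DMSO when only the libraries compared were fitted, and 0 with R1881 without the 2 libraries low in mitochondrial counts (chosen after seeing the data), in place of 3. For the 42D minus LNCaP response it was 2 (UGT2B15 and UGT2B17) with no filter, in place of 0.

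Leaving out 1 library gave 0 to 4 called genes for sgT33-5 against NT3 with DMSO and 0 to 3 with R1881, 1 to 3 for F2 against NT3 with R1881, 0 to 1 for the sgT33-5 and C2 responses, and 1 to 2 for 42D against LNCaP. Uncalled log2 fold changes crossed 0. UGT2B15 in 42D against LNCaP was 0.0007 with the block, and UGT2B11 in the sgT33-5 response -0.0558 without the 2 low libraries. With 1 library left out, UGT2B17 ran from -0.64 to 0.042 in the NT3 response, -0.46 to 0.13 in F2 against NT3 with DMSO and -0.32 to 0.18 with R1881, -0.19 to 0.0392 in the C2 response, -0.0378 to 0.0935 in the 42D guide comparison with R1881, and -0.51 to 0.0721 in 42D against LNCaP. Its response differences ran from -0.42 to 0.27 (sgT33-5), -0.10 to 0.58 (C2) and -0.25 to 0.43 (F2). UGT2B15 ran from -0.22 to 0.0278 in the C2 response, -0.12 to 0.0662 in the 42D guide comparison with DMSO and -0.23 to 0.084 with R1881, -0.26 to 0.13 in 42D against LNCaP, -0.31 to 0.11 for the sgT33-5 response difference and -0.21 to 0.10 for that of 42D. UGT2B28 ran from -0.0728 to 0.68 in F2 against NT3 with DMSO, -0.38 to 0.37 in the F2 response and -0.38 to 0.20 in 42D against LNCaP. UGT2B10 ran from -0.15 to 0.0341 in the C2 response and UGT2B11 from -0.12 to 0.37 in the 42D NT3 response. The cause of these changes was not tested.

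With the block UGT2B15 was also called in the LNCaP NT3 (adjusted p = 0.00489) and sgT33-5 (adjusted p = 0.000498) responses, UGT2B17 in sgT33-5 against NT3 with DMSO (adjusted p = 0.00494) and UGT2B10 in F2 against NT3 with R1881 (adjusted p = 0.0348). Replicate 2 held the highest UGT2B17 level in 8 of 8 LNCaP groups. The planned comparison of transcript with deposited or protein-table lengths was not run; with coding lengths of GENCODE (chosen after seeing the data) 0 of 72 ranks changed. Depth limits UGT2B28 and UGT2B7 most, with counts at or below 30 and 11 per library.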
